A study of Sus scrofa with 23 samples.

Results

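FITM2 (ENSSSCG00000007372) and MOGAT2 (ENSSSCG00000014861) are a pair of genes of triglyceride storage whose reads were counted in backfat, the fat under the skin along the back, taken from 23 pigs. The pair was picked by identifier from 25322 counted genes, because earlier results of the same counts had placed FITM2 lower in group II, and both genes lower in the combined groups fed cDDGS, than in group I. Those contrasts are therefore described here and not tested. The controls, group I (-cDDGS+rapeseed oil), were 7 pigs, 4 of them female. Of the pigs fed cDDGS, 6 formed group II (+cDDGS+rapeseed oil), 3 of them female. Another 5 formed group III (+cDDGS+beef tallow), 2 of them female, and the last 5 formed group IV (+cDDGS+coconut oil), 3 of them female. cDDGS, short for dried distillers grains of corn with their solubles, is what remains of maize after ethanol production. All pigs were crossbred fatteners, gilts and castrated males, kept under the same conditions, and their age at sampling is not given in the sources used here. Every diet carried an added fat. Groups I and II shared the same one and differed in cDDGS, and with it in the make-up of the feed, since the study's methods list more crude fat, more crude fiber and less starch for the diets with cDDGS. Groups III and IV differ from group I in both cDDGS and fat, and the effects of the 2 cannot be told apart there.

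Backfat adipocytes hold nearly all of their stored energy as triglyceride in a single large lipid droplet. FITM2 is a protein of the endoplasmic reticulum membrane that is needed for triglyceride to be packed into droplets and to leave the membrane. MOGAT2 joins a fatty acyl-CoA to monoacylglycerol and so makes the diacylglycerol that the DGAT enzymes turn into triglyceride. It is best known from the enterocytes of the small intestine, where it rebuilds dietary fat, while most triglyceride synthesis in fat cells is held to run through glycerol-3-phosphate.

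The libraries held 2437172 to 7979426 counted reads (median 4717511). Values for single pigs are CPM, counts scaled by the TMM method to libraries of 1e6 reads counted on genes. FITM2 was covered by 81 to 394 reads per pig, whereas MOGAT2 was covered by 2 to 291, so its low values rest on few reads. The tissue label was checked against adipocyte markers. All 5 markers that could be matched (PLIN1, CIDEC, LIPE, ADIPOR2 and CFD) had reads, and their summed level ranged from 1742 to 3179 CPM. ACTA1, the 1 matched marker of skeletal muscle, ranged from 0.88 to 1542 CPM between pigs. Its part in the results of the 2 genes was not tested. Pig 19 of group II stood apart, with the lowest adipocyte sum (1742 CPM) and the highest sum of macrophage markers (359.6 CPM) of all 23 pigs. Some contrasts are given with and without it. Group means, ranges, permutations and correlations over all pigs include it. In bulk tissue, fewer cells of a type and less RNA per cell cannot be told apart.

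FITM2 was highest in group I and lowest in group II. In group I the values were 51.7, 53.9, 59.3, 63.6, 71.5, 68.8 and 69.0 CPM for pigs 1, 2, 3, 5, 6, 7 and 8, a mean of 62.5 ± 7.8 (SD, n = 7). In group II they were 41.8, 28.7, 31.8, 44.6, 34.5 and 35.2 CPM for pigs 17, 19, 20, 21, 22 and 24, a mean of 36.1 ± 6.03 (SD, n = 6). The 2 groups did not overlap, since the highest pig of group II lay under the lowest pig of group I. Of 10323 genes tested between these groups, 0.242% had every group II pig below every group I pig. Since FITM2 was picked on this contrast, nothing is read from its place among them.

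In group III, FITM2 was 44.8, 60.9, 64.9, 42.6 and 42.0 CPM for pigs 41, 43, 45, 46 and 48 (51.0 ± 10.95, SD, n = 5). In group IV it was 29.5, 46.9, 51.4, 36.4 and 57.6 CPM for pigs 49, 52, 53, 54 and 55 (44.4 ± 11.4, SD, n = 5). Both groups spread more widely than groups I and II. In group III, pigs 43 and 45 reached the range of group I, and the other 3 lay below every pig of group I. In group IV, pig 55 alone reached that range. Over the 16 pigs fed cDDGS the mean was 43.4 ± 10.9 CPM (SD), and 13 of the 16 lay below every pig of group I.

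**Figure D1:**
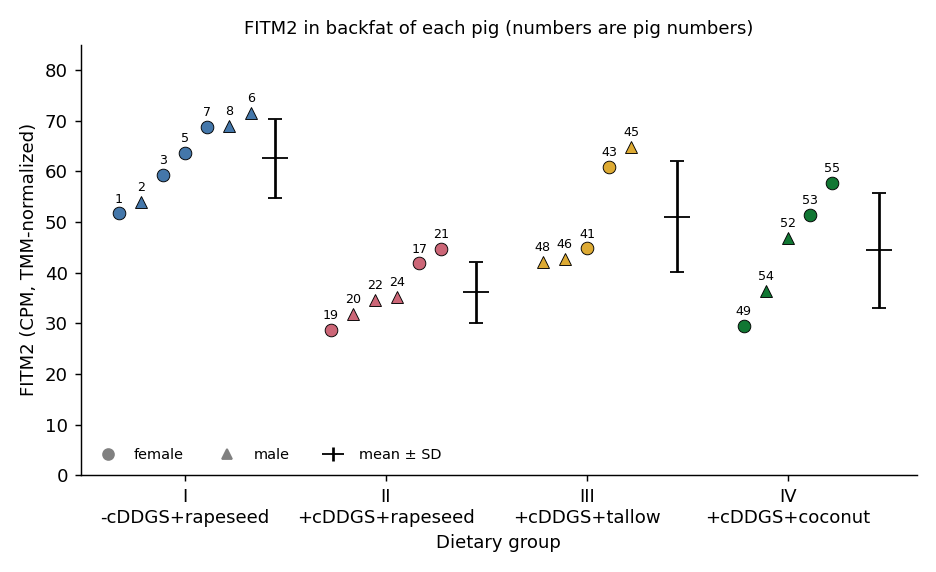
FITM2 in CPM (vertical axis, linear from 0) for each of the 23 pigs by dietary group (horizontal axis), with circles for females, triangles for males, pig numbers above the points and the group mean ± SD beside them. The 6 pigs of group II lie between 28.7 and 44.6 CPM, below all 7 pigs of group I, while groups III and IV reach into the range of group I.

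Log2 fold changes were fitted with edgeR to the counts of the pigs compared and are negative where the first-named group was lower. For FITM2 the difference was -0.79 (SE 0.13) between group II and group I, a 1.73-fold lower level. Without pig 19 it was -0.74, and the other 5 pigs of group II had 31.8 to 44.6 CPM. It was -0.29 (SE 0.14) for group III and -0.49 (SE 0.16) for group IV against group I, and -0.52 (SE 0.14), 1.44-fold lower, for the combined groups. These 4 contrasts share the pigs of group I. Against group II, FITM2 differed by 0.51 (SE 0.16) in group III and by 0.29 (SE 0.18) in group IV. The order of the group means was therefore I, III, IV and II, and of the neighbours in it groups III and IV were the pair that could be tested. Their difference, group IV minus group III, was -0.20 (SE 0.19, 95% interval -0.62 to 0.22), with an adjusted p of 0.997 from edgeR's quasi-likelihood test over 10230 genes. An exact two-sided permutation of the 10 pigs on log2(CPM + 0.5) gave p = 0.341 over 252 regroupings, or 0.866 after Benjamini-Hochberg adjustment over 4 such tests. The interval leaves room for a difference of up to 1.53-fold in one direction.

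MOGAT2 was not spread evenly within groups but was high in a few pigs and low in the rest. In group I it was 2.74, 33.9, 5.48, 54.8, 28.7, 40.7 and 3.35 CPM for pigs 1, 2, 3, 5, 6, 7 and 8 (24.2 ± 20.7, SD, n = 7). Pigs 2, 5, 6 and 7 were high, and pigs 1, 3 and 8 lay in the range of the pigs fed cDDGS. In group II it was 3.47, 22.3, 4.59, 4.92, 5.37 and 0.87 CPM for pigs 17, 19, 20, 21, 22 and 24 (6.92 ± 7.70, SD, n = 6), so that pig 19 alone was high. The lowest value, that of pig 24, stands for 2 reads in the shallowest library.

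No pig of groups III and IV had a high level. In group III, MOGAT2 was 8.48, 1.86, 7.04, 2.89 and 4.23 CPM for pigs 41, 43, 45, 46 and 48 (4.9 ± 2.79, SD, n = 5). In group IV it was 2.97, 3.13, 4.34, 3.03 and 6.30 CPM for pigs 49, 52, 53, 54 and 55 (3.95 ± 1.43, SD, n = 5). Over all 23 pigs, 18 lay under 10 CPM, the highest of them at 8.48, and 5 lay above it, the lowest of them at 22.3. The 5 were 4 pigs of group I and 1 of group II, and they included 3 females (pigs 5, 7 and 19) and 2 males (pigs 2 and 6). The mean of group I therefore stands for no typical pig of that group. Its median was 28.7 CPM, and 3 of its 7 pigs lay below the highest pig of group III.

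**Figure D2:**
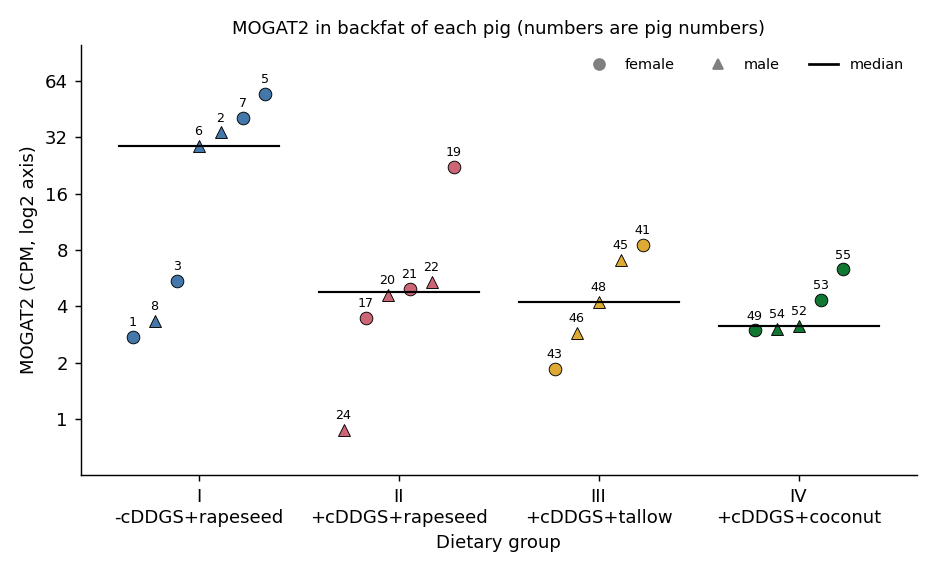
MOGAT2 in CPM (vertical axis, log2 scale) for each of the 23 pigs by dietary group (horizontal axis), with circles for females, triangles for males, pig numbers above the points and a line at each group's median. Pigs 2, 5, 6 and 7 of group I and pig 19 of group II lie at 22.3 CPM or above, and the other 18 pigs lie at 8.48 CPM or below.

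The fitted MOGAT2 level was lower than in group I by a log2 fold change of -1.78 (SE 0.70, 3.43-fold) in group II, -2.37 (SE 0.72, 5.16-fold) in group III and -2.59 (SE 0.70, 6.02-fold) in group IV. For the combined groups it was -2.18 (SE 0.46, 4.54-fold), or -2.51 without pig 19. The value for group II moved with 1 pig: without pig 19 it was -2.59, and without pig 5 of group I it was -1.43. The order of the group means was I, II, III and IV.

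Among the groups fed cDDGS, the added fat went with no MOGAT2 difference past the spread between pigs. Group III minus group II was -0.57 (SE 0.59, 95% interval -1.83 to 0.70, edgeR adjusted p = 0.951). Group IV minus group II was -0.82 (SE 0.55, interval -2.01 to 0.36, edgeR adjusted p = 0.990), and group IV minus group III was -0.24 (SE 0.40, interval -1.10 to 0.62, edgeR adjusted p = 0.997). Exact two-sided permutations of the pigs gave p = 0.866, 0.654 and 0.706 for the 3 contrasts, each 0.866 after adjustment over the 4 tests. The first 2 again rested on pig 19, without which group III minus group II was 0.25 and group IV minus group II was -0.0022. These intervals are wide and do not show that the fats act alike. Over all genes, edgeR called 0% in each of the 3 fat comparisons, with an unadjusted p under 0.05 for 6.22%, 4.99% and 4.12% in the order given. DESeq2 called 0.251%, 0.0116% and 0%.

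**Figure D3:**
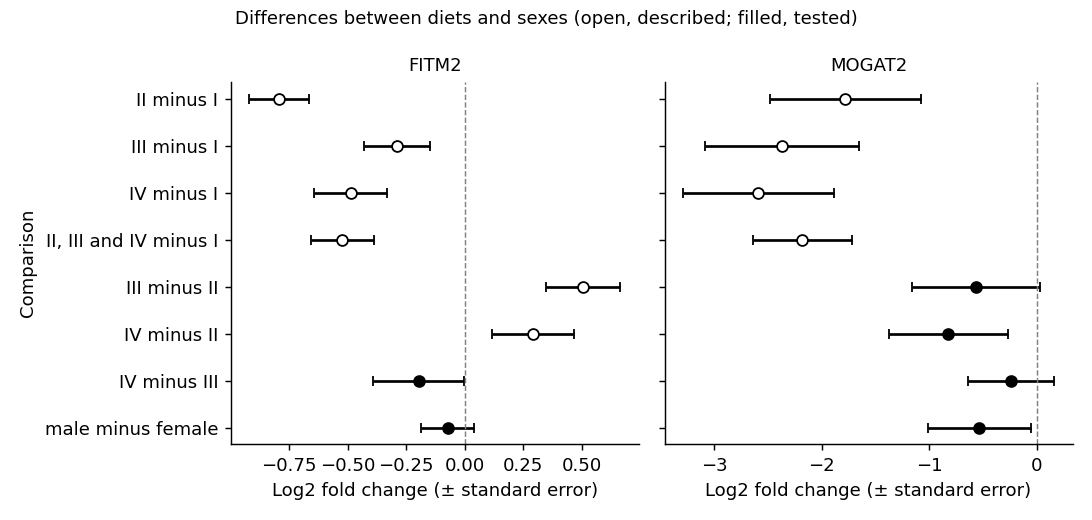
Log2 fold changes (horizontal axis) with their standard errors for FITM2 (left) and MOGAT2 (right) in 8 comparisons (vertical axis), with open points for contrasts that are only described and filled points for tested ones. FITM2 ranges from -0.79 (II minus I) to 0.51 (III minus II), and every MOGAT2 value lies below 0, with standard errors from 0.40 to 0.72.

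For neither gene was a sex difference past the spread between pigs found. With dietary group in the model, males minus females was -0.07 (SE 0.11, 95% interval -0.31 to 0.16, edgeR adjusted p = 0.772) for FITM2 and -0.54 (SE 0.48, interval -1.52 to 0.45, edgeR adjusted p = 0.577) for MOGAT2. In group I, FITM2 was 60.8 ± 7.24 CPM (SD) in 4 females and 64.8 ± 9.50 in 3 males. In group II it was 38.4 ± 8.51 in 3 females and 33.8 ± 1.78 in 3 males. The direction of the sex difference was thus opposite in these groups, by less than the spread. The difference between pigs with and without cDDGS was itself compared between the sexes. This interaction was -0.23 (SE 0.25, adjusted p = 1.000 by edgeR) for FITM2 and -0.49 (SE 0.99, adjusted p = 1.000 by edgeR) for MOGAT2. Of all genes, edgeR called 0.954% between the sexes and 0% for the interaction, and DESeq2 called 2.12% and 0.00541%.

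Pigs high or low in one gene were not always so in the other. Pig 1 had the lowest value of group I for both, at 2.74 CPM of MOGAT2 and 51.7 CPM of FITM2. Pig 19, with the highest MOGAT2 of group II at 22.3 CPM, had the lowest FITM2 of that group at 28.7 CPM. Pigs 3 and 8 of group I had low MOGAT2 with FITM2 at 59.3 and 69.0 CPM, within the range of the other pigs of their group. Over the 23 pigs, Pearson's r between the 2 genes on log2(CPM + 0.5) was 0.37. Of the 11039 genes with enough reads, 1296, with FITM2 itself counted among them, stood closer to FITM2 than MOGAT2 did. In the 18 pigs with MOGAT2 under 10 CPM, r was 0.23. All such correlations are given as descriptions, and genes from the same libraries share depth and diet.

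The genes most like FITM2 over the 23 pigs were COX7A2 (r = 0.80), STRAP (0.79), ENSSSCG00000028477 (0.78), UBQLN1 (0.78) and NEK4 (0.77). COX7A2 encodes a subunit of cytochrome c oxidase, the last complex of the respiratory chain, and UBQLN1 carries ubiquitinated proteins to the proteasome. STRAP is an RNA- and kinase-binding adaptor, and NEK4 is a protein kinase. The mean of COX7A2 was 27.2 ± 6.55 CPM (SD) over the 7 pigs of group I, 15.8 ± 2.41 over the 6 of group II, 20.7 ± 3.84 over the 5 of group III and 20.3 ± 7.69 over the 5 of group IV, the same order of groups as FITM2. The likeness was weaker within groups. Taken as deviations from the group means, r of these 5 genes with FITM2 ranged from 0.56 to 0.64, and none of the 5 was among the 5 most alike by that measure.

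The genes most like MOGAT2 were MAP6 (r = 0.87), UCP2 (0.80), DUS4L (0.80), LIMS1 (0.79) and ENSSSCG00000030390 (0.79), and all 5 were also the 5 most alike on deviations from the group means. MAP6, which stabilizes microtubules, was 22.6, 46.5, 21.0 and 25.0 CPM in pigs 2, 5, 6 and 7 and 9.82 CPM in pig 19, the 5 pigs with high MOGAT2. In the other 3 pigs of group I it was 0.18, 0.63 and 0 CPM. Of the other pigs, pigs 45 and 46 of group III had 7.04 and 3.18 CPM of MAP6, and the rest had 1.29 CPM or less. MAP6 was thus above 9 CPM in the same 5 pigs in which MOGAT2 was above 10 CPM, and in no other. Within the 18 pigs with low MOGAT2, r between the 2 genes was 0.26, so the value over all pigs rested on the 5 high pigs.

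In the RefSeq order of protein-coding genes on the Sscrofa11.1 assembly, MAP6 is the gene next to MOGAT2. Of the 20 nearest protein-coding genes, 10 on each side, 9 were measured. Their r with MOGAT2 ran from -0.16 to 0.87, the value of MAP6, with a median of 0.19. Over all 11038 other genes the median was 0.0013, with 5th and 95th percentiles of -0.45 and 0.42, so the median of the neighbours lay well inside that range. SERPINH1, a collagen chaperone 2 genes away on the side of MAP6 and named here after its value was seen, had r = 0.61. The next highest was UVRAG with r = 0.29. For FITM2, 8 of the 20 nearest genes were measured, with r from -0.40 to 0.14. Whether the counts were taken by strand is not given in the sources used here, and reads that run from one gene of an adjacent pair into the other were not tested for.

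UCP2, a carrier of the mitochondrial inner membrane that lies 25 genes from MOGAT2 in the same order, was 14.3, 16.4, 12.5 and 13.5 CPM in pigs 2, 5, 6 and 7 and 8.23 CPM in pig 19. It was also high in pig 8 (10.3 CPM), which had little MOGAT2. Pig 21 of group II, with 4.92 CPM of MOGAT2, had 7.53 CPM of UCP2, close to pig 19. Within the 18 pigs with low MOGAT2, r was 0.23. For LIMS1, a focal adhesion adaptor, and DUS4L, which modifies transfer RNA, r within those 18 pigs was 0.70 and 0.68. DUS4L was itself low, with a mean of 4.95 ± 1.53 CPM (SD) over the 7 pigs of group I and 2.83 ± 1.21 over the 6 of group II.

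**Figure D4:**
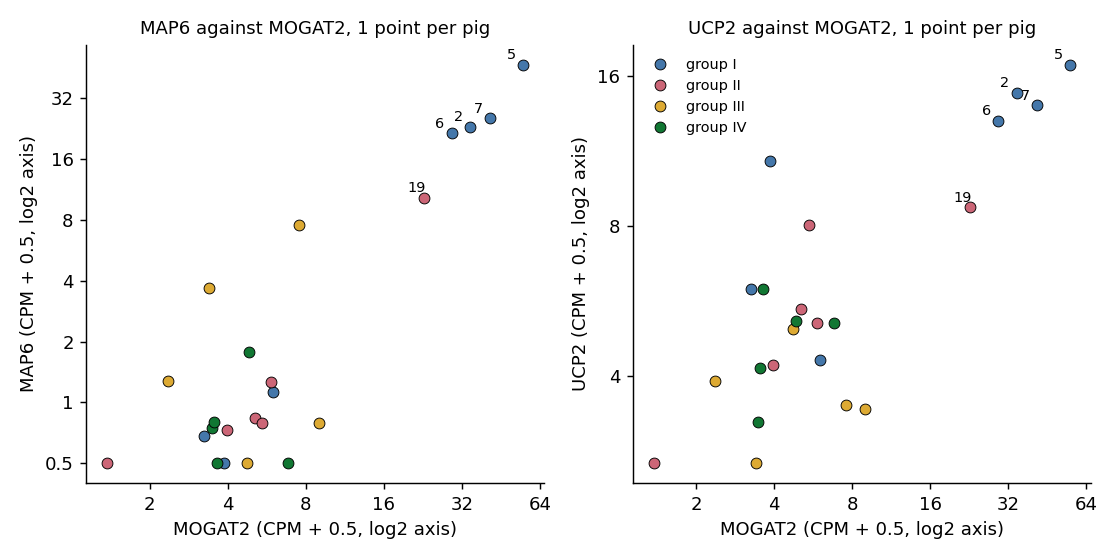
MAP6 (left) and UCP2 (right) on the vertical axes against MOGAT2 on the horizontal axes, all as CPM + 0.5 on log2 scales, with 1 point per pig coloured by dietary group and numbers on the 5 pigs with high MOGAT2. These 5 pigs stand together at the upper right for MAP6 (9.82 to 46.5 CPM), while pig 8 of group I also has high UCP2 (10.3 CPM).

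The other genes of triglyceride metabolism were taken from a list of 61 symbols, of which 39 could be matched to identifiers. Between group II and group I, 33 of them had enough reads to be tested, and edgeR called none (0.0291% of all genes were called). Before adjustment 11 of the 33 had p under 0.05, 10 lower and 1 higher in group II, beside 13% of all genes. Their median log2 fold change was -0.20, beside 0.003 over all genes, with 23 below 0 and 10 above. DESeq2 called none of 29 list genes and 1.15% of all genes.

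The enzymes that finish triglyceride stood closest to the pair by function. DGAT1, which adds the third fatty acid, had means of 19.5 ± 3.32, 15.4 ± 2.82, 12.6 ± 2.96 and 15.3 ± 2.30 CPM (SD, n = 7, 6, 5 and 5) in groups I to IV. Its log2 fold change was -0.34 (SE 0.15, edgeR adjusted p = 0.367) in group II and -0.43 (SE 0.13, adjusted p = 0.123) in the combined groups against group I. DGAT2, MOGAT1 and MOGAT3 could not be matched to identifiers. FITM1, the relative of FITM2 that is best known from muscle, had 36 reads over all 23 pigs and did not enter the tests.

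In the list of the glycerol-3-phosphate route, which holds GPD1 and PCK1 beside acyltransferases and lipins, 9 genes were tested between groups I and II. An unadjusted p under 0.05 was found for 1 of them, beside 13% of all genes. GPAT4, which acylates glycerol-3-phosphate, had a log2 fold change of -0.42 (SE 0.13, edgeR adjusted p = 0.242). AGPAT5, of the next step, had -0.34 (SE 0.20) and GPAM, the mitochondrial acyltransferase, had -0.20 (SE 0.14). The median of the 9 was -0.07.

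Of 6 tested genes of droplet proteins, 5 were below 0 in group II against group I, beside 5120 of all 10323 genes. Lists this short were not tested as sets. CIDEC, which fuses and enlarges droplets, averaged 364 ± 95.4 CPM (SD) in the 7 control pigs and 268 ± 36.5 in the 6 pigs of group II, a log2 fold change of -0.44 (SE 0.17, edgeR adjusted p = 0.308). PLIN5, a droplet coat protein, had -0.62 (SE 0.40) and BSCL2, or seipin, which acts where droplets arise, had -0.25 (SE 0.20). Against the combined groups, CIDEC had -0.42 (SE 0.11). It was there not called by edgeR (adjusted p = 0.110) and was called by DESeq2 (adjusted p = 0.0386). PLIN4 had -0.49 (SE 0.23, edgeR adjusted p = 0.303) in that comparison.

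Of 5 tested genes that break triglyceride down, 4 were below 0 in group II against group I, beside 5120 of all 10323 genes. An unadjusted p under 0.05 was found for 3 of the 5, beside 13% of all genes, and no set was tested. LIPE, the hormone-sensitive lipase, averaged 660 ± 111 CPM (SD) in the 7 control pigs and 467 ± 87.4 in the 6 pigs of group II, a log2 fold change of -0.50 (SE 0.15, edgeR adjusted p = 0.224). ABHD5, the activator of the first lipase, had -0.60 (SE 0.21), and MGLL, which cleaves monoacylglycerol, the substrate of MOGAT2, had -0.43 (SE 0.16). PNPLA2, the first lipase itself, had -0.24 (SE 0.13, edgeR adjusted p = 0.348) against the combined groups.

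Fatty acid uptake and activation was mixed. FABP5, a fatty acid binding protein, averaged 968 ± 317 CPM (SD) in the 7 control pigs and 1570 ± 610 in the 6 pigs of group II, a log2 fold change of 0.70 (SE 0.26, edgeR adjusted p = 0.285), and it was the 1 list gene on the higher side with an unadjusted p under 0.05. ACSL1 and ACSL4, which activate fatty acids with coenzyme A, had -0.52 (SE 0.22) and -0.35 (SE 0.14). SLC27A4, a fatty acid transporter, had -0.47 (SE 0.29) against the combined groups. Among the regulators, MLXIPL, the carbohydrate-responsive factor ChREBP, had -0.56 (SE 0.16, edgeR adjusted p = 0.224) and NR1H3, the liver X receptor alpha, had -0.31 (SE 0.13). PPARG, the factor of fat cell differentiation, had 0.33 (SE 0.21).

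**Figure D5:**
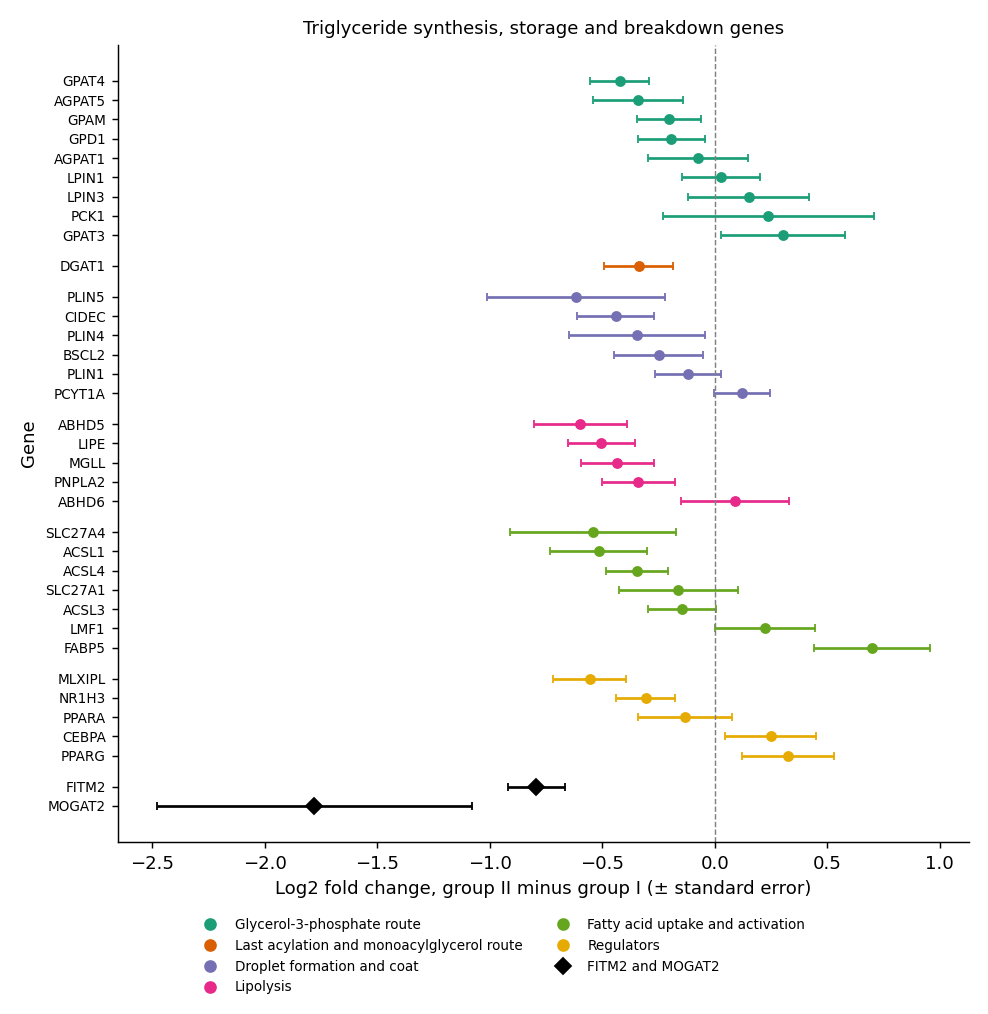
Log2 fold changes of group II minus group I (horizontal axis) with standard errors for the 33 tested list genes (vertical axis), coloured by sub-list, with FITM2 and MOGAT2 as black diamonds. Of the 33 genes 23 are below 0 and FABP5 (0.70) lies farthest to the right, while the pair was picked for low values with cDDGS, so nothing is read from its place.

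In the other comparisons edgeR also called none of the list. Of 33 list genes tested, 3 in group III and 8 in group IV had an unadjusted p under 0.05 against group I, beside 7.96% and 14.2% of all genes, and 9 of 34 did in the combined groups, beside 15.8%. The list's medians were -0.037, -0.14 and -0.095, beside 0.0039, -0.014 and 0.0056 over all genes. edgeR called 0% of all genes in each of these 3 comparisons, and DESeq2 called 0.109%, 1.31% and 1.67%. DESeq2 called 1 list gene, CIDEC, in the combined groups and none in groups III and IV. Between the cDDGS groups, 3 of 32 list genes (III minus II), 2 of 32 (IV minus II) and 2 of 32 (IV minus III) had an unadjusted p under 0.05, beside 6.22%, 4.99% and 4.12% of all genes, and DESeq2 called none. Between the sexes 8 of 33 did, beside 17.7% of all genes, and DESeq2 called AGPAT1, of the glycerol-3-phosphate route, higher in males, beside 2.12% of all genes.

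Markers of other cell types and the share of reads outside genes differed between some of the diets. The part of the markers in the FITM2 and MOGAT2 results was not tested. The share was used as a covariate for both genes and set against FITM2 within groups, as given further below. The summed level of the 7 matched macrophage markers was 33.9 to 165 CPM in group I and 182 to 360 CPM in group II, with no overlap, and 77.1 to 234 in group III and 88.9 to 227 in group IV. MRC1 held more of their reads than any other of the 7. All 5 macrophage markers with enough reads were on the higher side in group II. Each had an unadjusted p under 0.05, beside 13% of all genes. edgeR called none, and DESeq2 called MRC1, C1QA and VSIG4, beside 1.15% of all genes. In the combined groups all 5 were again higher with an unadjusted p under 0.05, beside 15.8% of all genes. There edgeR called none, and DESeq2 called C1QA, C1QC and VSIG4, beside 1.67% of all genes. Between groups I and II, 0.262% of all single genes had every group II pig above every group I pig. This share is for single genes and is no measure for a sum of 7 markers. The summed level of the 5 adipocyte markers was 2346 to 3179 CPM in group I, 1742 to 2777 in group II, 2183 to 2895 in group III and 2158 to 2603 in group IV. CIDEC and LIPE stand in both this list and the triglyceride list. Pig 19 held the ends of both ranges. The 7 identifiers of fibroblast or preadipocyte markers summed to 7190 to 12840 CPM in group I, 7408 to 12752 in group II, 4342 to 9045 in group III and 5939 to 10951 in group IV. Most of their reads were of the collagen gene COL3A1. Of the 7, 6 were below 0 in group III and 6 in group IV against group I, beside 5131 of 10423 and 5399 of 10388 genes. An unadjusted p under 0.05 was found for 3 and 2 of them, beside 7.96% and 14.2% of all genes. In group II 2 of the 7 were below 0, and in the combined groups 5. edgeR called none of them in these 4 comparisons. DESeq2 called 1, an identifier of the growth factor receptor PDGFRB, lower in group IV, beside 1.31% of all genes.

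The tissues best known for MOGAT2 were checked by their markers. Of the enterocyte markers, CDX2 had 2 reads, SI had 1 and VIL1 had 33 over all 23 pigs, while APOA4 had 536. The summed level of the 4 was 0.55 to 3.58 CPM in group I, 0 to 13.4 in group II, 2.32 to 20.9 in group III and 1.52 to 15.4 in group IV. The 6 hepatocyte markers summed to 5.66 to 698 CPM in group I, 7.24 to 5683 in group II, 51.5 to 1125 in group III and 55.5 to 1726 in group IV, most of it ALB. APOA4, the 1 enterocyte marker tested, was higher with an unadjusted p under 0.05 in each of the 4 comparisons with group I. Of all genes 13%, 7.96%, 14.2% and 15.8% had such a p in groups II, III, IV and the combined groups. DESeq2 called it in the combined groups, beside 1.67% of all genes. Of the hepatocyte markers, 1 of 3 tested had such a p in group II and 0 of 4 in group III, beside 13% and 7.96% of all genes. In group IV 3 of 4 did and in the combined groups 3 of 4, beside 14.2% and 15.8% of all genes. In the 5 pigs with high MOGAT2 the enterocyte markers summed to 0.57 to 2.83 CPM and the hepatocyte markers to 84.4 to 522 CPM. The highest sums were in pig 48 (20.9 CPM) and pig 17 (5683 CPM). Whether other tissue gave reads of MOGAT2 was not tested.

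The share of uniquely mapped reads that fell outside annotated genes averaged 56.8 ± 2.53%, 62.5 ± 5.81%, 56.8 ± 3.999% and 63.0 ± 5.05% (SD, n = 7, 6, 5 and 5) in groups I to IV. Pig 19 had 68.5%, and the other 4 pigs with high MOGAT2 had 53.2% to 59.3%. With this share as a covariate, a choice made after seeing the data, MOGAT2 in group II against group I moved from -1.78 to -2.50, and FITM2 was -0.78, -0.29 and -0.33 in groups II, III and IV and -0.44 in the combined groups against group I. Within groups, FITM2 showed no clear relation with this share (Pearson's r = -0.14, permutation p = 0.579, Spearman's rho = -0.17, permutation p = 0.490, r = -0.20 without the 2 farthest pigs). The same held for RNA integrity (r = 0.20, permutation p = 0.373, rho = 0.20, p = 0.391, r = 0.18 without the 2 farthest pigs) and for depth (r = -0.15, permutation p = 0.505, rho = -0.11, p = 0.655, r = -0.0012 without them). After Benjamini-Hochberg adjustment over the 3 relations the permutation p was 0.579 for each r and 0.655 for each rho.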

How the data were processed

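Stranded libraries were made by the authors from backfat total RNA freed of ribosomal RNA. The paper reports that the RNA was degraded, probably through freezer problems, and that a library kit accepting such RNA was chosen for this reason. Their single-end reads passed through FLEXBAR for trimming and TopHat for mapping, and HTSeq gave the number of reads on each Ensembl gene. The deposited counts are raw whole numbers for each gene and pig, in 25322 gene rows and 5 summary rows. The summary rows, which name no gene, took 62.6 to 76.7% of the reads and were left out of library sizes and tests. The libraries were sequenced in replicate, and how runs were merged is not given in the sources used here. The study's methods name assembly 11.1, but the gene identifiers belong to an older numbering, so no coordinates or sequences are given.

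Symbols came from a reference table for 11804 identifiers and from the study's own tables for 77 more, among them FITM2 and MOGAT2. The reference table pairs the symbol FITM2 with another identifier, which is not among the counted genes, so the name given to ENSSSCG00000007372 rests on the study's table. The members, the gene lists and the rule for named genes were chosen with earlier results of these data known. Named were the pair, their nearest relatives by function, every list gene called in any comparison, the 3 genes of each sub-list with the smallest unadjusted p when group I was compared with group II or with the combined groups, and the 5 genes most like each member.

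Counts were analysed in R 4.3.3 with edgeR 4.0.16. Genes kept by filterByExpr were normalized by TMM, tested with glmQLFit and glmQLFTest on the pigs compared and adjusted by the Benjamini-Hochberg method over all genes tested. As in the study, a gene was called at an adjusted p under 0.05 together with a fold change above 1.3. Sex was tested over all 23 pigs with dietary group as covariate. Exact two-sided permutation tests used log2(CPM + 0.5), and relations with library measures used 100000 permutations within groups. Scripts were tested on simulated data. P-values measure the spread between pigs, each of which gave 1 library. Of 56 pairs of pigs of 1 group, none differed by as little as sampling noise (smallest chi-square per degree of freedom 7.02), so every pig counts as 1 sample. Reads mapping to several places are not counted, so genes with near-identical copies are uncertain.

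Alternatives were DESeq2 1.42.0 (Wald test, the tool of the study), median-ratio size factors, no low-count filter, sex or RNA integrity in the model, a joint fit of the 23 pigs, no limit on the fold change and each pig left out in turn. Quantitative PCR and fatty acid data were not analysed here. Plots were drawn with matplotlib 3.10.9.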

Additional observations from a re-analysis of the deposited data

Results flagged for a closer look

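In group II, MOGAT2 of pig 19 was 22.3 CPM, far above the next pig at 5.37 CPM, a gap of 0.79 of the group's range, where 0.625 is the limit of Dixon's test for 6 pigs. MAP6 of the same pig was 9.82 CPM with the next pig at 0.77 CPM (0.92 of the range). In group IV, MAP6 of pig 53 was 1.29 CPM with the next pig at 0.30 CPM (0.76 of the range, limit 0.71 for 5 pigs), a level of a few reads. Of 48 groups looked at (12 genes in 4 groups), 3 stood out, and chance alone gives about 1 in 20. Pigs 2, 5, 6 and 7 of group I do not stand out in this way, since they are 4 of 7.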

How the results depend on the processing

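Of 744 values recomputed under other settings, 715 kept their direction and call. The 744 include counts of called list genes that were 0 in the main fits, so the share kept is no measure for the pair alone. FITM2 kept its direction in every contrast under every setting tried, with -0.81 to -0.78 for group II against group I and -0.86 to -0.74 when single pigs were left out. MOGAT2 kept its direction in the 4 contrasts with group I, from -2.70 to -1.78 over other settings and from -2.80 to -1.43 over pigs left out. Its tested contrasts have large errors, and the sign of some was not stable. Group IV minus group II and males minus females kept their sign throughout, though the former was -0.0022 without pig 19. Group III minus group II was 0.31 with the share of reads outside genes as covariate, a choice made after seeing the data, and -0.84 to 0.25 with pigs left out (0.25 without pig 19). Group IV minus group III was -0.47 to 0.031 (0.031 without pig 41), and the interaction with sex was -1.18 to 0.030 (0.029 without pig 2 and 0.030 without pig 19). None of these was past the threshold under any setting, and the cause of the changes of sign was not tested, beyond the pigs left out.

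The counts of called list genes were 0 in edgeR. With DESeq2 the triglyceride list had 1 call in the combined groups (CIDEC) and 1 between the sexes (AGPAT1, also 1 without the low-count filter). With DESeq2, markers had 3 calls in group II (MRC1, C1QA and VSIG4), 1 in group IV (PDGFRB) and 2 between the sexes. They had 5 in the combined groups (C1QA, C1QC, VSIG4 and APOA4 higher, CIDEC lower). Markers also had 1 call in group II with sex as covariate (C1QA), and 1 between the sexes without the low-count filter (DCN). With single pigs left out, the triglyceride list had 0 to 1 call in group IV (FABP5 without pig 53), in the combined groups (CIDEC without pig 1) and between the sexes (AGPAT1 without pig 5 and without pig 20), and the markers had 0 to 1 in the combined groups and between the sexes. Over all genes, the counts of calls differ by more between tools: 3 by edgeR and 95 by DESeq2 in group II, 0 and 12 in group III, 0 and 135 in group IV, 0 and 159 in the combined groups, 98 and 247 between the sexes. Of the 5 genes most like FITM2, 2 were shared under Spearman's rho and 0 on deviations from the group means. For MOGAT2 the numbers were 2 and 5. No paired analysis was possible because pigs of different groups share no number in the labels. Depth limits MOGAT2, which had as few as 2 reads in a pig.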
